A study of Mus musculus with 6 samples.

Results

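The loci described here carry RIKEN clone names, symbols that end in Rik, in RNA sequencing of mouse adrenal glands. They were the loci of the deposited count table named by a single Rik symbol and holding at least 60 counts summed over the 6 libraries, without 9130023H24Rik, which overlaps the deleted gene Armc5. This rule took 1001 loci, with 998 distinct symbols, out of 2877 loci with a single Rik symbol and 59699 loci in all. Of the 2877, 984 had no count in any library. The libraries came from wild-type (WT, n = 3) and Armc5 knockout (KO, Armc5(-/-), n = 3) mice; all were females of 30 weeks on a 129 sv X CD1 background. Samples carry the numbers 1 to 3 within a group, but nothing in the labels says that they are separate animals. The p-values therefore reflect only how far these samples spread, which may be technical. Because the summed count chose the members, their being detected is no finding.

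A Rik name records a full-length mouse cDNA clone from the RIKEN sequencing project and marks a transcript that had not been given a name by function when it was annotated. Many such loci are long noncoding RNAs (lncRNAs), transcripts without a long reading frame that often begin beside or across from a protein-coding gene, and others code for proteins. ARMC5, the protein lost in the KO mice, recruits substrates, among them the largest subunit of RNA polymerase II, to a ubiquitin ligase built on cullin 3. By GENCODE M21 type, 253 members were protein coding, 560 were lncRNAs and 188 were of other types, of which 162 were TEC loci, regions known from cDNA that still await experimental proof of a transcript. The lncRNAs held 196 lincRNAs (between genes), 164 antisense transcripts, 135 processed transcripts and 48 transcripts from bidirectional promoters.

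Promoter windows are shown first for members whose counts separated the groups most, or whose start lies closest to that of a gene moving the other way. Each runs from 250 bases before to 50 after a RefSeq start site (GRCm38.p6), 5′ to 3′ on the strand of the locus. 2810006K23Rik (chr5:124327839-124328138, plus strand) is protein coding and starts head to head with Mphosph9, and capitals mark the 116 bases between both loci. In the other windows capitals mark matches to CCAAT or TATAAA on either strand, so that ATTGG is a CCAAT match on the opposite strand. 1700016G22Rik (chr13:5858043-5858342, minus strand) is the lincRNA upstream of Klf6. 2610035D17Rik (chr11:113201789-113202088, minus strand) is a lincRNA downstream of Slc39a11. 4930417O13Rik (chr6:125265275-125265574, plus strand) is a noncoding processed transcript with no match to either motif in this window. 2310069B03Rik (chr6:82881804-82882103, minus strand) is the lincRNA that fell.
2810006K23Rik: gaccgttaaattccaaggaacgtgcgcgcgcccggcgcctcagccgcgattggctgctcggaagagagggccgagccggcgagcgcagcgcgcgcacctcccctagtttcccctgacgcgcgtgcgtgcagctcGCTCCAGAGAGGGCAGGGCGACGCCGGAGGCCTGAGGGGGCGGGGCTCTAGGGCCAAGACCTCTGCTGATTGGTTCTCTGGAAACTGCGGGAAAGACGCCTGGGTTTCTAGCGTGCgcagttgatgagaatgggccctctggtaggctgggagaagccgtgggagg
1700016G22Rik: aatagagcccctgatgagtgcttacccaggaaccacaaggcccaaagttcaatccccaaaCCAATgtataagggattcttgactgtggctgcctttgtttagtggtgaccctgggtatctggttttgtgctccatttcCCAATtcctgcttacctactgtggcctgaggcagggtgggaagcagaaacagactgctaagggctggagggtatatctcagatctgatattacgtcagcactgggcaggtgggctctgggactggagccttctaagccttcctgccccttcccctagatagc
2610035D17Rik: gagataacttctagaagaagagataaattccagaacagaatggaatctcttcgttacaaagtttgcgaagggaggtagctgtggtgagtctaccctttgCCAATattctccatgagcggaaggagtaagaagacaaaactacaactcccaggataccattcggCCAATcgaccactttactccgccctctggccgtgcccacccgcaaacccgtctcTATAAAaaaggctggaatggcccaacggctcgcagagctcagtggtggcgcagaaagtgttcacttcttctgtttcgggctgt
4930417O13Rik: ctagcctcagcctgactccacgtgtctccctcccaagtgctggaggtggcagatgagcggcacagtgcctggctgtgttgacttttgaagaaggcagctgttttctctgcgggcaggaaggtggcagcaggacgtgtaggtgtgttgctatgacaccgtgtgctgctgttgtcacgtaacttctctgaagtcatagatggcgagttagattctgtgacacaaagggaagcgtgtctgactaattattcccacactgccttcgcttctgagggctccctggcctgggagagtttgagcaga
2310069B03Rik: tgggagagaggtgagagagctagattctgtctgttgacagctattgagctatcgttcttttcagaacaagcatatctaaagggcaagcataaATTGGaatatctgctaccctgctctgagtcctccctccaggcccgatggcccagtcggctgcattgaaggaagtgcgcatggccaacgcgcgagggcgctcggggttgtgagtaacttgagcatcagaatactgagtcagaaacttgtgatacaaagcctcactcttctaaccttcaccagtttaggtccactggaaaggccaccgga

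The window of 2810006K23Rik held 31 CpG dinucleotides and that of 1700016G22Rik held 1, against a median of 7 over all 32851 RefSeq mouse windows of this length. A window was found for 542 of the 1001 members and for 7 of the 16 called members. The members' 669 windows had a median of 14 CpG, and CCAAT was present on either strand in 35.1% of them against 37.4% of all windows. TATAAA was present in 6.28% of the members' windows and in 13.6% of all windows. The cAMP response element TGACGTCA was present in 2.84% against 1.79%, and CAAGGTCA, a site of the steroidogenic factor NR5A1, in 2.24% against 1.56%. None of the 5 printed windows held TGACGTCA or CAAGGTCA. A match of letters is a description of the window and not of binding.

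The 6 libraries held 70547288 to 130573434 counts. Armc5 was at 27.3, 25.3 and 27.8 CPM, that is counts scaled to a library of 1e6 counts in WT replicates 1 to 3 and at 3.58, 3.53 and 3.66 CPM in KO replicates 1 to 3 (log2 fold change -2.90, SE 0.10, adjusted p = 0.00041, edgeR), as the labels say. The 12 adrenal cortex markers were all present, with summed levels of 43200 to 72800 CPM in WT and 33800 to 39300 CPM in KO, and none was called. The 14 chromaffin cell markers of the adrenal medulla summed to 2910 to 4280 CPM in WT and 5950 to 6660 CPM in KO. All 14 had a positive log2 fold change and 6 were called. In whole glands, more cells of a type and more RNA per cell cannot be told apart. Hepatocyte markers summed to 3970 CPM in KO replicate 3 against 111 to 182 CPM elsewhere, and macrophage markers to 1100 CPM in WT replicate 2 and 762 CPM in WT replicate 3 against 215 to 253 CPM elsewhere.

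The members were weakly expressed. Their median level was 0.822 CPM over the 6 libraries, with a range from 0.0908 to 329 CPM. At least 1 CPM was reached by 468 members, at least 10 CPM by 110 and at least 100 CPM by 9. Together they made up 0.505%, 0.522% and 0.508% of all counts with a gene name in WT replicates 1 to 3, and 0.626%, 0.618% and 0.602% in KO replicates 1 to 3. The share was higher in every KO library than in any WT library. The 10 members with the most counts held 28.7% of all counts of the members.

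Per length, the highest protein-coding member was 1500015O10Rik, the mouse Ecrg4 gene for the secreted peptide precursor augurin, with a mean level of 86.7 CPM per kilobase. It stood at 125, 23.1 and 54.8 CPM in WT replicates 1 to 3 and at 96.3, 73.7 and 96.6 CPM in KO. The WT libraries spread so widely that the groups overlapped. Next came 9530068E07Rik with 60.8 CPM per kilobase, 2610507B11Rik, the mouse gene for KIAA0100, with 36.5, and 4833439L19Rik with 35.3. 2610507B11Rik had the highest level of all members in CPM, with 402, 344 and 360 in WT and 306, 254 and 306 in KO. Every KO library lay below the WT libraries for it, but the difference did not pass the test (log2 fold change -0.35, SE 0.12, adjusted p = 0.161, edgeR).

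The lncRNAs with the highest levels per length were 4930426D05Rik with 14.9 CPM per kilobase, 1810058I24Rik with 10.9, A530020G20Rik with 10.1 and 1700020I14Rik with 9.35. 1700020I14Rik was at 124, 39.3 and 132 CPM in WT and at 118, 114 and 110 CPM in KO. WT replicate 2 lay far below the other 5 libraries for this lincRNA. 1810058I24Rik, the lincRNA that encodes the microprotein mitolamban, was at 37.5, 41.7 and 43.3 CPM in WT and at 31.8, 29.9 and 32.6 CPM in KO. The groups did not overlap, yet its log2 fold change of -0.38 (SE 0.09) was not called (adjusted p = 0.0921, edgeR). Among the other types the highest were the TEC loci 7330423F06Rik with 15.6 CPM per kilobase, 2900092N22Rik with 6.50 and 2610306O10Rik with 4.54, and the pseudogene 2810025M15Rik with 4.78.

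Comparing KO with WT over all named loci, 15 members rose and 1 fell at an adjusted p under 0.05 (edgeR's quasi-likelihood test, two-sided, adjusted over the 21358 tested loci). Of all tested loci 1.41% were called higher in KO and 0.431% lower, so the share of the 981 tested members called in either direction, 1.63%, was close to the 1.84% of all tested loci. The 16 called members comprised 9 lncRNAs that rose, 1 lncRNA that fell, 4 protein-coding loci and 2 loci of other types. The counts depended on the libraries. Without KO replicate 1 or without KO replicate 2 no member was called by edgeR, with 105 and 133 members higher and 25 and 27 lower at an unadjusted p under 0.05. Of all tested loci only 0.0672% and 0.099% were called in these fits. Without WT replicate 3 or without KO replicate 3 the antisense lncRNA A230083N12Rik was the only one of the 16 called again. There 0.0886% and 0.171% of all tested loci were called. DESeq2 on all 6 libraries called 87 higher and 18 lower, all 16 among them, and 12.4% of all tested loci.

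**Figure D1:**
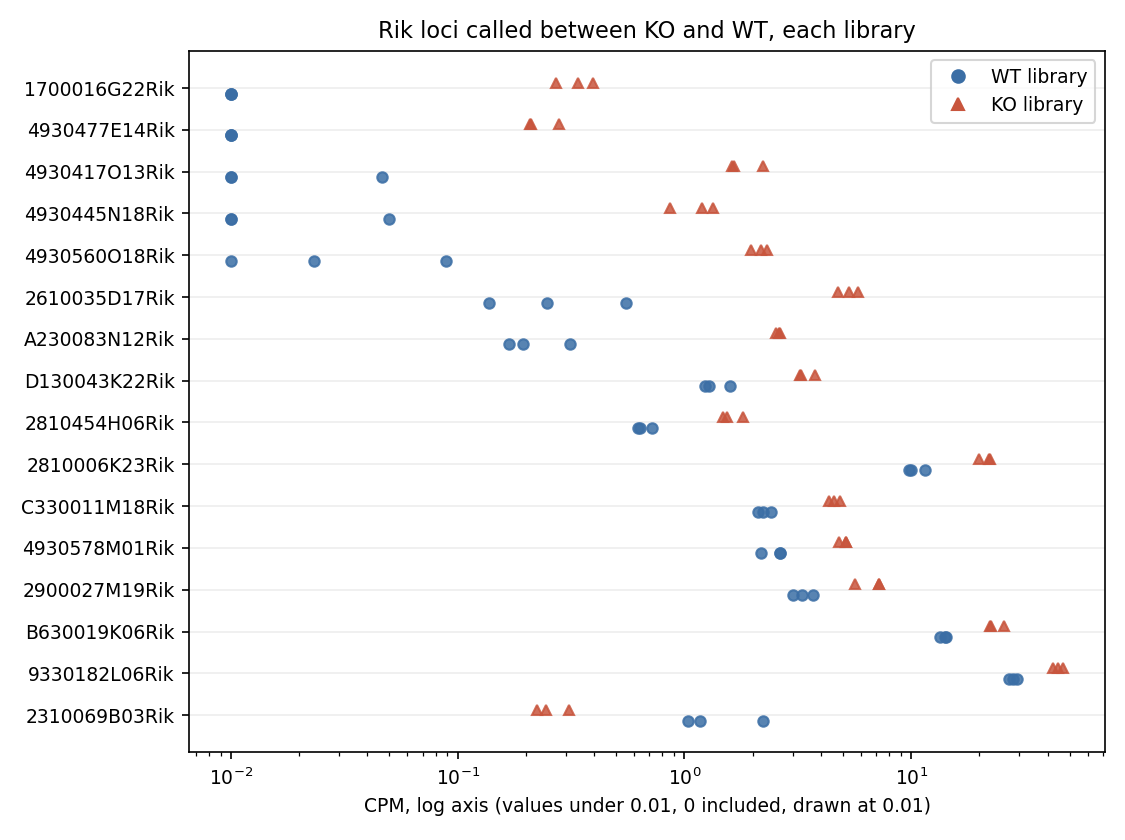
CPM in each library (log axis, with values under 0.01, 0 included, drawn at 0.01) of the 16 called members, 3 WT libraries as circles and 3 KO libraries as triangles. All triangles lie to the right of the circles in 15 members and to the left in 2310069B03Rik.

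A first set of lncRNA and TEC loci was nearly without counts in WT. Their WT counts alone fell short of the minimum on summed counts, and each entered the list through its KO counts. Their place on the list is therefore no evidence of a rise apart from the counts themselves. 1700016G22Rik, a lincRNA of 5 exons on chromosome 13 (5855508 to 5858092), had no count in any WT library and 0.272, 0.394 and 0.340 CPM in KO replicates 1 to 3. Scaled by library size, its 104 KO counts were 34.1-fold above a floor of 3 counts over the WT group (lower limit of the 95% counting interval 11.3, adjusted p = 0.0336, edgeR). 4930477E14Rik, a lincRNA on chromosome 3 (96401150 to 96402014), also had no WT count and was at 0.281, 0.210 and 0.209 CPM in KO, 74 counts in all. It was 24.2-fold higher against the same floor (lower limit 7.98, adjusted p = 0.0437, edgeR). Counting intervals and floors cover counting error only.

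4930417O13Rik, a processed transcript on chromosome 6 (125265476 to 125287286), had 6 counts, all in WT replicate 2, against 562 in KO. Its KO levels were 1.66, 2.23 and 1.62 CPM, a ratio of 92.1 (95% counting interval 42.0 to 252; adjusted p = 0.0290, edgeR). 4930445N18Rik, a lincRNA on chromosome 18 (82855894 to 82870604), had 4 counts, all in WT replicate 3, and 352 in KO. Its KO levels were 0.861, 1.34 and 1.2 CPM, a ratio of 86.5 (33.5 to 319; adjusted p = 0.0436, edgeR). 4930560O18Rik, a single-exon TEC locus on chromosome 7 (120101611 to 120103205), was at 0.0889, 0.0232 and 0 CPM in WT and at 2.32, 1.97 and 2.18 CPM in KO (log2 fold change 5.77, SE 0.78, adjusted p = 0.0296, edgeR). Without WT replicate 1 its log2 fold change was 7.17. It shares 225 exonic bases with Tmem159 on the other strand, which stood at 35.1 to 45.8 CPM in WT and 40.8 to 45.5 CPM in KO. Whether reads of Tmem159 enter the counts of this locus was not tested.

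2610035D17Rik, a lincRNA of 5 exons that spans chromosome 11 from 113042562 to 113201877, was at 0.553, 0.248 and 0.137 CPM in WT and at 5.33, 5.81 and 4.78 CPM in KO. The log2 fold change was 4.07 (SE 0.51, adjusted p = 0.0251, edgeR), or 16.8-fold, and 4.75 without WT replicate 1, the highest WT library. A230083N12Rik, which lies antisense to the 5′ part of the histone demethylase gene Kdm4c on chromosome 4 (74211401 to 74251743), was at 0.168, 0.194 and 0.312 CPM in WT and at 2.63, 2.53 and 2.60 CPM in KO. It rose by 3.53 on the log2 scale (SE 0.29, 11.6-fold, adjusted p = 0.0117, edgeR). In both lincRNA and antisense transcript the WT libraries lay far below the KO libraries. A230083N12Rik kept its call in 11 of 15 alternative analyses, and the other called members in 5 to 9.

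The protein-coding members that rose were already expressed in WT. 2810006K23Rik, the mouse gene for the mitochondrial translation release factor known in humans as MTRFR or C12orf65, was at 11.5, 9.96 and 9.80 CPM in WT and at 22, 20 and 22.2 CPM in KO (log2 fold change 1.04, SE 0.11, adjusted p = 0.0171, edgeR). D130043K22Rik, the mouse gene for KIAA0319, was at 1.28, 1.59 and 1.23 CPM in WT and at 3.78, 3.23 and 3.27 CPM in KO (1.32, SE 0.19, adjusted p = 0.0356, edgeR). In both, the lowest KO library lay well above the highest WT library. 9330182L06Rik, the mouse ELAPOR2 gene, was at 28.0, 29.3 and 27.0 CPM in WT and at 42.1, 44.6 and 46.8 CPM in KO (0.66, SE 0.09, adjusted p = 0.0274, edgeR). B630019K06Rik, protein coding in GENCODE and a transcribed pseudogene in RefSeq, was at 14.3, 14.1 and 13.4 CPM in WT and at 22.5, 25.6 and 22.2 CPM in KO (0.75, SE 0.10, adjusted p = 0.0293, edgeR). Reads of a pseudogene may be shared with its parent gene. These latter 2 had the smallest fold changes of the 15 and were named after their values were seen.

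The other 4 risers were lncRNAs and the TEC locus 2900027M19Rik, and rose by close to 1 on the log2 scale. 2810454H06Rik, which lies within Gpr19 on the other strand, was at 0.721, 0.635 and 0.623 CPM in WT and at 1.54, 1.81 and 1.48 CPM in KO (1.29, SE 0.20, adjusted p = 0.0443, edgeR). Gpr19, an orphan receptor gene, was at 6.26, 4.65 and 7.08 CPM in WT and at 10.8, 15.5 and 12.6 CPM in KO (1.11, adjusted p = 0.0578, edgeR). The exons of both share 270 bases, and reads of either could not be told apart if counting ignored strand. C330011M18Rik rose from 2.12 to 2.41 CPM in WT to 4.33 to 4.84 CPM in KO (1.03, adjusted p = 0.0396, edgeR). 4930578M01Rik rose from 2.17 to 2.65 CPM to 4.79 to 5.18 CPM (1.02, adjusted p = 0.0440, edgeR), and 2900027M19Rik, named after its values were seen, from 3 to 3.69 CPM to 5.67 to 7.23 CPM (1.01, adjusted p = 0.0489, edgeR). None of the 4 had a KO library within the WT range.

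2310069B03Rik was the 1 member called lower. This lincRNA of 4 exons on chromosome 6 (82877864 to 82881853) was at 1.17, 1.04 and 2.21 CPM in WT and at 0.245, 0.223 and 0.309 CPM in KO. WT replicate 3 stood above the other WT libraries, and every KO library lay below all of them (log2 fold change -2.49, SE 0.38, adjusted p = 0.0406, edgeR). The next in order of p-value did not pass the test. They were the protein-coding 4931406C07Rik with 114, 85.3 and 90.3 CPM in WT and 64.7, 57.6 and 66.8 CPM in KO (-0.62, adjusted p = 0.0723, edgeR), and the lincRNA 1700087I21Rik (-0.84, adjusted p = 0.0781). The lincRNA F730311O21Rik (-1.06, adjusted p = 0.0800) and the protein-coding D430019H16Rik (-0.44, adjusted p = 0.0852) followed. In each of these 4 the KO libraries lay below the WT libraries without overlap.

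Below the level of single calls, the distribution of the members lay above 0. Their median log2 fold change was 0.27 (quartiles -0.05 and 0.67), against -0.01 over all tested loci. Setting the 3 members without a WT count to the floor of 3 counts left the median at 0.27. Positive values were found in 701 members (71.5%) and in 49.3% of all tested loci. In 237 members (24.2%) the lowest KO library exceeded the highest WT library, against 16.3% of all tested loci, and in 56 (5.71%) the highest KO library was under the lowest WT library, against 14.2%. At an unadjusted p under 0.05, 176 members were higher and 38 lower, where 12.5% and 9.73% of all tested loci were. These are descriptions of the list and carry no test. Scaled by total counts alone the median was 0.49 with 0.22 over all tested loci, and with equal counts of Rn7sk it was 0.46 with 0.19, so the distance between them was 0.27 under both.

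The same shift is given here library by library, from the same values. The median over members of log2 CPM minus the WT mean was -0.06, 0.05 and 0.03 in WT replicates 1 to 3 and 0.32, 0.34 and 0.21 in KO replicates 1 to 3. For loci that are not members it lay between -0.00 and 0.01 in all 6 libraries. TMM scaling sets the bulk of loci near 0, and WT libraries are set against their own mean, so both lie near 0 by construction. For members, the KO libraries had no value within the WT range. KO replicate 3, with its hepatocyte transcripts, had the lowest of the KO values. The chromaffin marker sum moved with the groups in the same way. So did that of 14 markers of multiciliated cells (34.4 to 42.0 CPM in WT and 47.8 to 58.4 CPM in KO, 3 of 12 tested called higher). The sums of erythroid markers (508 to 856 CPM in WT and 137 to 384 CPM in KO) and lymphocyte markers (36.9 to 56.7 CPM and 25.2 to 34.1 CPM) were lower in every KO library, with none called. The sums for endothelial cells (817 to 974 CPM and 621 to 769 CPM) and for the adrenal cortex were lower too. The part of these cell types in the members' shift was not tested.

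By type alone, the median log2 fold change was 0.34 in the 543 tested lncRNAs, 0.29 in the 188 members of other types and 0.15 in the 250 tested protein-coding members. The types also differed in level, with a median of 0.658 CPM in the lncRNAs and 3.29 CPM in the protein-coding members, and at like level the order was not kept. The lncRNA and protein-coding members had medians of 0.51 and 0.43 at 0.1 to 0.3 CPM, 0.35 and 0.38 at 0.3 to 1 CPM, and 0.25 and 0.44 at 1 to 3 CPM. At 3 to 10 CPM they were 0.30 and 0.12, and above 10 CPM 0.14 and -0.00. The difference between types was not tested. Protein-coding loci with other names had a median of -0.05 over 13003 tested. Loci with Gm names, predicted mouse genes chosen by the same count minimum, had a median of 0.16 over 4522 tested, with 34 called higher and 5 lower (0.862%). LncRNA members took 0.101% to 0.110% of named counts in WT and 0.138% to 0.152% in KO. Protein-coding members took 0.370% to 0.386% in WT and 0.426% to 0.439% in KO. No KO library lay within the WT range for either type.

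**Figure D2:**
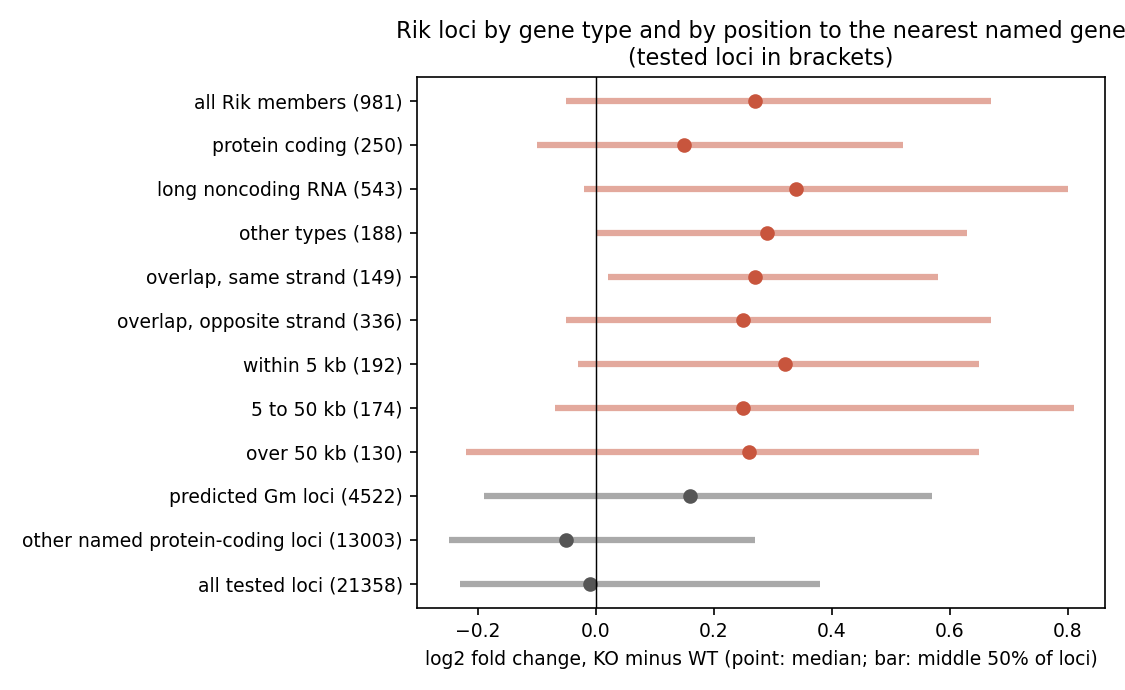
Median log2 fold change (points) of KO against WT with the middle 50% of loci (bars), for the tested members by gene type and by position relative to the nearest named gene, in red, and for Gm loci, other named protein-coding loci and all tested loci, in grey. The lncRNA members have a median of 0.34 and the other named protein-coding loci one of -0.05.

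Level of expression moved with the shift. Members at a mean of 0.1 to 0.3 CPM had a median log2 fold change of 0.45, against 0.25 for other loci of that level. At 0.3 to 1 CPM the medians were 0.36 and 0.20, at 1 to 3 CPM 0.27 and 0.16, at 3 to 10 CPM 0.24 and 0.06, and above 10 CPM 0.05 and -0.10. The value of members exceeded that of other loci in each of the 5 levels. Among lncRNAs alone the order was not the same throughout. LncRNA members and other lncRNAs had medians of 0.51 and 0.41 at 0.1 to 0.3 CPM, 0.35 and 0.30 at 0.3 to 1 CPM, and 0.25 and 0.27 at 1 to 3 CPM. At 3 to 10 CPM they were 0.30 and 0.24, and above 10 CPM 0.14 and 0.00. The difference between members and other lncRNAs of like level was not tested.

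**Figure D3:**
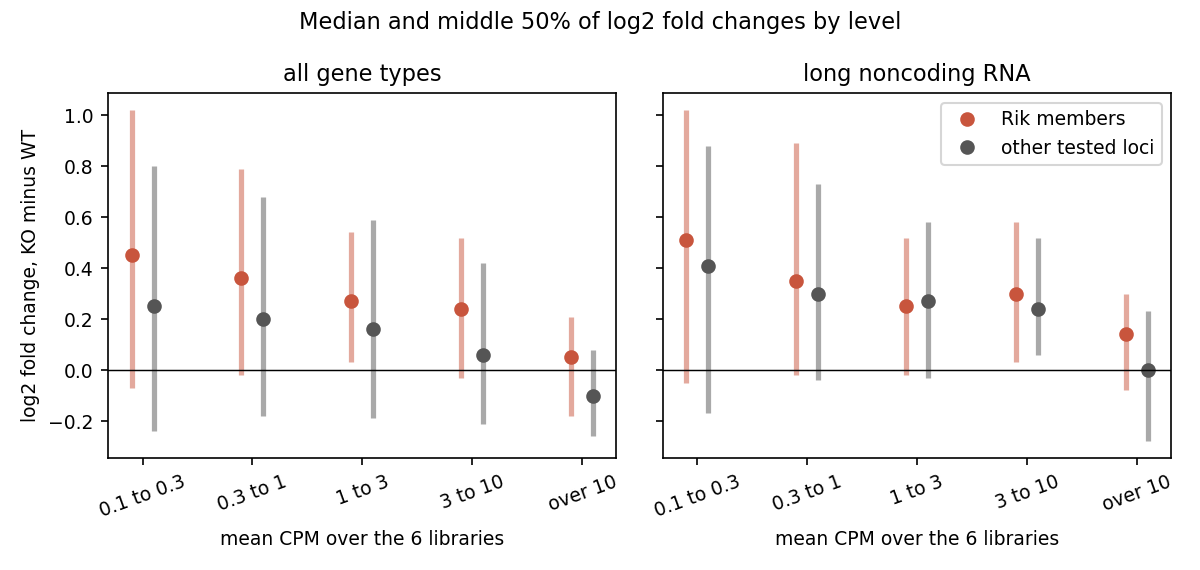
Median log2 fold change (points) of KO against WT, with the middle 50% of loci (bars), by mean CPM over the 6 libraries, for members and other tested loci of all gene types (left) and for long noncoding RNAs alone (right). The members' medians fall from 0.45 at 0.1 to 0.3 CPM to 0.05 above 10 CPM and lie above those of other loci in each level on the left, while at 1 to 3 CPM on the right the order is turned (0.25 against 0.27).

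Each member was then set beside its nearest named gene. This was the nearest tested locus with a single symbol that is neither a clone nor a predicted-gene name. Genes that failed the count filter and loci that merge several genes were skipped. A closer gene may therefore exist, and the distances are those to the nearest tested locus of this kind. By the deposited extents, the gene lay across from the member on the opposite strand in 340 cases and overlapped on the same strand in 151. Some of these extents are far longer than in GENCODE. The Tuba1c locus spans 91443 bases against 8220 in GENCODE, by which 4930578M01Rik lies 33444 bases from it and not within it. It lay within 5 kb in 193 cases, at 5 to 50 kb in 181 and farther than 50 kb in 136. The median log2 fold change was 0.25 for members with an opposite-strand overlap, 0.27 with a same-strand overlap, 0.32 within 5 kb, 0.25 at 5 to 50 kb and 0.26 beyond. It was 0.41 for the 122 members that start head to head within 5 kb of the named gene, 39 of which (32.0%) had no KO library within or below the WT range, against 24.2% of all tested members and 16.3% of all tested loci. In 246 members, exons overlapped those of the named gene on the opposite strand, and no source used here states if counting used strand.

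The nearest named genes did not share the members' shift. Over the 981 tested pairs their median log2 fold change was -0.05, and the median of the difference, member minus named gene, was 0.29. Members and named genes were not matched for level, with which the fold changes moved. Tested members had a median of 0.865 CPM, and other named protein-coding loci one of 17.1 CPM. The part of level in this difference was not tested. Across pairs the fold changes were weakly related (Pearson r = 0.0359 and Spearman rho = 0.0890, both across loci, which share the same 6 libraries and are not independent replicates). With both genes at 1 CPM or more, r was 0.108 and rho 0.196 over 436 pairs. In the 103 pairs that start head to head within 1 kb, the members had a median of 0.42 and the named genes one of -0.06. Of these, 41 pairs (39.8%) moved in the same direction, against 49.4% of all tested pairs. Of the 981 tested members, 20 had a named gene that was itself called, where 1.84% of all tested loci were called. In 2 pairs both were called.

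**Figure D4:**
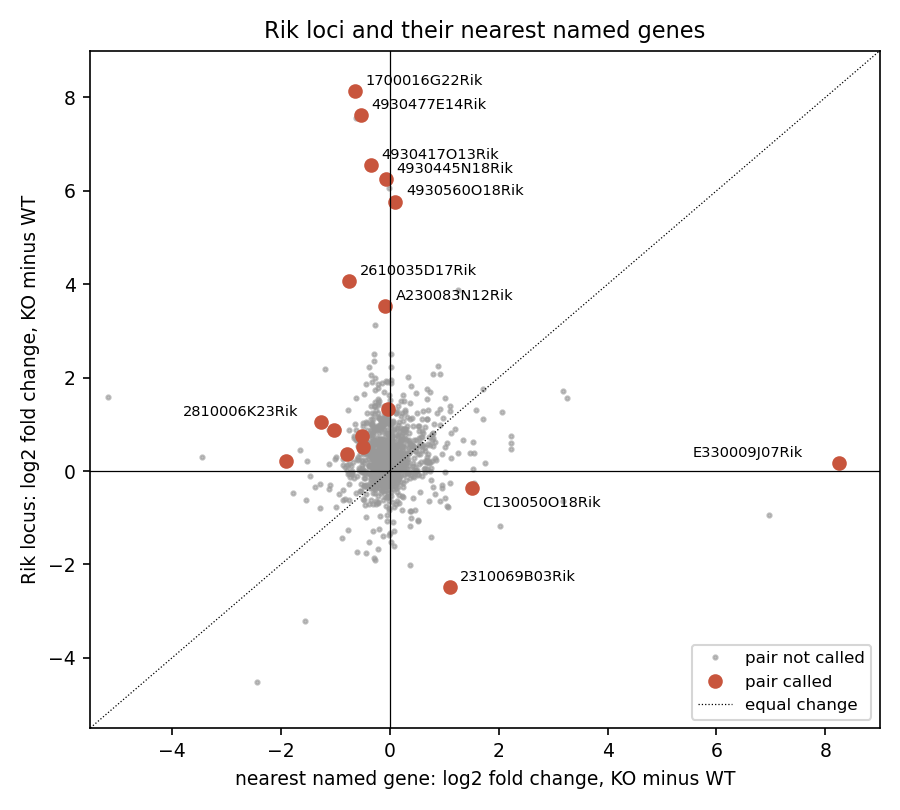
Log2 fold change of each tested member (vertical) against that of its nearest named gene (horizontal), 981 pairs, with the 17 called pairs in red, some of them named, and a dotted line of equal change. Fitted values are drawn, which depend on the prior count for loci without a WT count; most points gather around 0.27 for the members and -0.05 for the named genes.

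The difference between member and named gene was called in 17 pairs (1.73%), against 2.41% of all 21322 pairs of a locus with its nearest named gene (limma on log2 CPM differences with a prior count of 2). The member moved up relative to the gene in 14 pairs and down in 3, against 1.39% and 1.02% of all pairs. The pair with the smallest p was 2810006K23Rik and Mphosph9, a gene for a centriole protein. Mphosph9 was at 17.1, 18 and 20.1 CPM in WT and at 8.23, 7.91 and 6.78 CPM in KO (log2 fold change -1.27, adjusted p = 0.0161, edgeR). Across the 116 bases printed above, the release factor gene rose and Mphosph9 fell. The difference was 2.31 (SE 0.19, adjusted p = 0.00594, limma).

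1700016G22Rik and Klf6, a zinc finger transcription factor gene, were the other pair with both members called. They start head to head with 3389 bases between them. Klf6 was at 121, 115 and 115 CPM in WT and at 71.8, 69.5 and 85 CPM in KO (log2 fold change -0.63, adjusted p = 0.0443, edgeR). The lincRNA was seen in KO libraries alone, where Klf6 was lowest. The difference was 4.83 (SE 0.52, adjusted p = 0.0144, limma), a value that depends on the prior count since the lincRNA had no WT count.

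In 6 further pairs an lncRNA or TEC member rose beside a named gene that was not called. A230083N12Rik rose by 3.53 while Kdm4c was at 40.4 to 46.0 CPM in WT and 39.6 to 40.5 CPM in KO. Their deposited loci overlap by 9247 bases on opposite strands, and their GENCODE exons share no base. The deposited locus of A230083N12Rik, which gave the counts, spans 40343 bases against 1391 in GENCODE. The difference between member and named gene was 3.55 (SE 0.32, adjusted p = 0.00865, limma). For 4930417O13Rik and Ltbr, the lymphotoxin beta receptor gene, it was 6.32 (adjusted p = 0.0127). For 2610035D17Rik and the zinc transporter gene Slc39a11 it was 4.90 (adjusted p = 0.0127), for 4930445N18Rik and Zfp516 5.34 (adjusted p = 0.0135), and for 4930560O18Rik and Tmem159 5.50 (adjusted p = 0.0144). Kdm4c, Zfp516 and Tmem159 had log2 fold changes of -0.09, -0.07 and 0.10, and Slc39a11, Terc and Ltbr had -0.75, -0.54 and -0.34. In Terc and Ltbr every KO library lay below the WT range, so these differences hold both the member's and the gene's value. 4930477E14Rik, at 12422 bases from the telomerase RNA gene Terc, had a difference of 4.24 (adjusted p = 0.0240), which again rests on the prior count. The differences of 4930417O13Rik, 4930445N18Rik and 4930560O18Rik, which had few WT counts, depend on it as well.

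The 3 pairs with the member lower were of different kinds. 2310069B03Rik fell beside Sema4f, a semaphorin gene, which was at 2.72, 2.70 and 1.57 CPM in WT and at 4.86, 5.45 and 4.67 CPM in KO (log2 fold change 1.10, adjusted p = 0.0798, edgeR). The difference was -3.49 (SE 0.54, adjusted p = 0.0342, limma). C130050O18Rik was at 0.711 to 1.09 CPM in WT and 0.630 to 0.781 CPM in KO while Gper1, a membrane estrogen receptor gene 7527 bases away, was at 3.65, 4.81 and 3.57 CPM in WT and at 11.9, 10.9 and 11.4 CPM in KO (1.51, adjusted p = 0.0178, edgeR). Their difference of -1.85 (adjusted p = 0.0309, limma) thus came with a called rise of Gper1. E330009J07Rik was at 30.7 to 37.1 CPM in WT and 36.2 to 39.8 CPM in KO, and its partner Wee2, an oocyte kinase gene, had no WT count and 0.108 to 0.630 CPM in KO (difference -3.87, adjusted p = 0.0492, limma). Wee2 itself was not called (adjusted p = 0.0773, edgeR), and the difference depends on the prior count. With a prior count of 0.5, 2 pairs with the member lower were called in place of 3. C130050O18Rik was named after its values were seen.

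**Figure D5:**
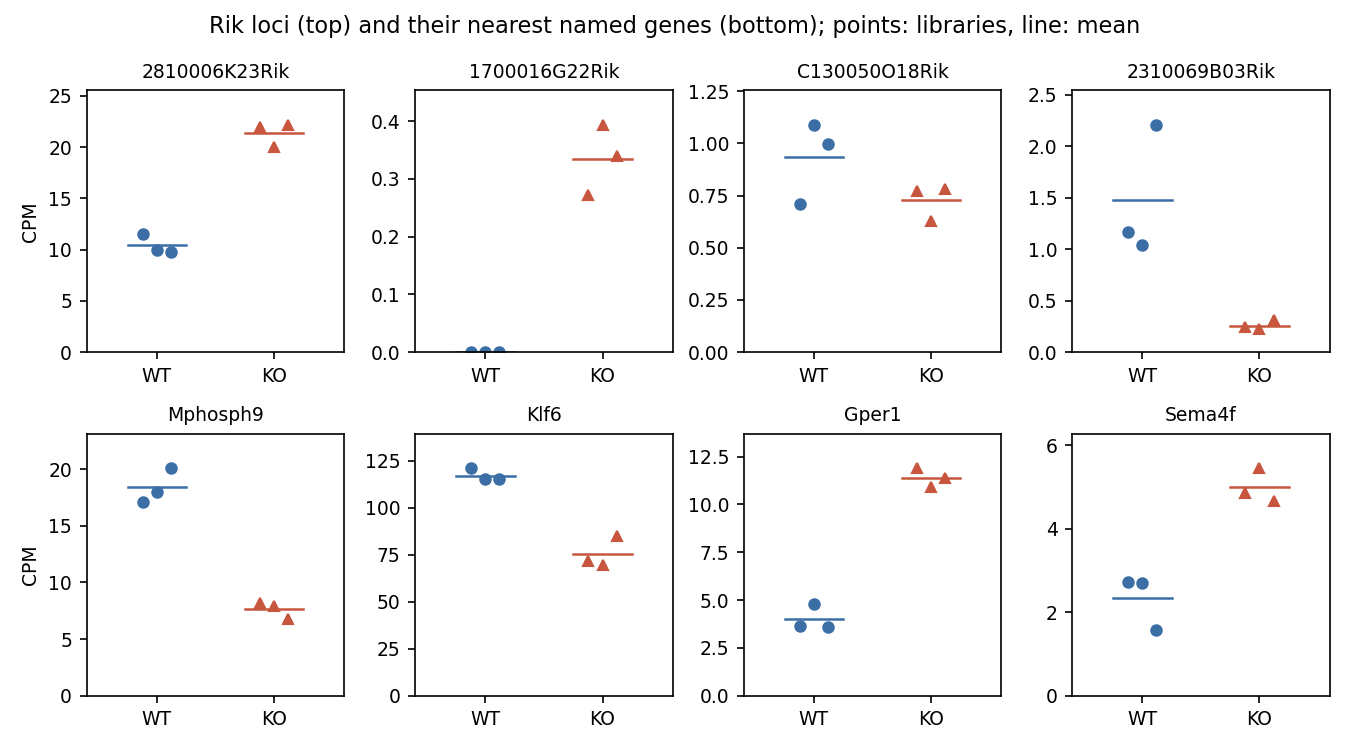
CPM in each library (points, with the mean of each group as a line; linear axes from 0) of 4 members above and their nearest named genes below, WT libraries as circles and KO libraries as triangles. 2810006K23Rik and Mphosph9 move in opposite directions, and Klf6 falls from at least 115 CPM to at most 85 CPM where 1700016G22Rik appears.

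The other 6 called pairs, named after their values were seen, included 1700030K09Rik with Tpm4 (difference 1.17), 2610028D06Rik with Tagln (1.91) and D330041H03Rik with Abca3 (0.99). In these first 3 the named gene was called lower and the member was not called. 4930523C07Rik with Tnn (1.94), D130043K22Rik with Tdp2 (1.35) and B630019K06Rik with Lancl3 (1.26) were the last. The deposited locus of Tagln, a smooth muscle actin-binding protein gene, spans 589280 bases against 6440 in GENCODE, and that of Tpm4 409075 against 18168. That of the member D330041H03Rik spans 59440 against 9894. By GENCODE coordinates the nearest named gene of 2610028D06Rik is Cep164 and that of 1700030K09Rik is Calr3. The same holds for C330011M18Rik, which lies in the deposited locus of Zswim4 (279216 bases against 26378) and whose GENCODE neighbour is Rfx1. The remaining 15 called pairs kept their named gene by GENCODE coordinates, as did 922 of the 1001 members, and all 15 were called again.

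A few members beside called genes of known function are given here although they did not pass the test themselves. They were named after their values were seen. 5033428I22Rik, 7484 bases from Hand2, a transcription factor gene of sympathoadrenal cells, had a log2 fold change of 1.33 (SE 0.68, adjusted p = 0.304, edgeR), and Hand2 one of 0.93 (adjusted p = 0.0464). 6430584L05Rik, 39692 bases from Adcyap1r1, the gene of the PACAP receptor, had 2.08 (SE 0.38, adjusted p = 0.0550, edgeR), and Adcyap1r1 0.92 (adjusted p = 0.0489). Chromaffin cells express both named genes. The chromaffin marker sum given above moved with them, but Hand2 is itself among its markers. Its part in these values was not tested. 4933433G15Rik, head to head with the kinase gene Mapk6 across 178 bases, had 1.56 (SE 0.49, adjusted p = 0.145, edgeR) where Mapk6 fell by 0.62 on the log2 scale (adjusted p = 0.0309).

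Some members varied more among replicates than between groups. The antisense lncRNA 4732440D04Rik was at 5.43, 0.0232 and 6.57 CPM in WT and at 0.0181, 0.0394 and 6.17 CPM in KO. It was either near 6 CPM or near 0, and both states occurred in both groups. 2210418O10Rik was at 1.26, 2.04 and 5.57 CPM in WT and at 0.0181, 5.66 and 3.19 CPM in KO. 2900052L18Rik, at its locus on chromosome 11 from 120228682 to 120231585, was at 2.24, 1.97 and 1.58 CPM in WT and at 0, 0 and 1.57 CPM in KO. KO replicate 3 was alone among the KO libraries in holding counts of it. With all 6 libraries the log2 fold change of this locus was -1.85 (SE 1.61, adjusted p = 0.532, edgeR). A second member of the same symbol, also with Slc38a10 as its nearest named gene, had a log2 fold change of 0.66. Without KO replicate 3, the 1 member called lower by edgeR carried this symbol, and which of these loci it was is not given here. At the other end, the protein-coding D430042O09Rik stayed between 50 and 54.1 CPM, 2810004N23Rik between 24.3 and 26.4 CPM, and E130311K13Rik between 5.55 and 6.29 CPM in all 6 libraries. 2510039O18Rik was as steady within groups, at 52.0 to 55.9 CPM in WT and 44.3 to 47.4 CPM in KO (log2 fold change -0.24, SE 0.08, adjusted p = 0.150, edgeR).

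In 20 members most of the summed CPM came from 1 library, which was KO replicate 3 for 8, WT replicate 2 for 6 and WT replicate 3 for none. 1300017J02Rik was at 14.9 CPM in KO replicate 3 and at most 0.245 CPM elsewhere, so 96.1% of its summed CPM was in that library. The lncRNAs 1810008I18Rik (98.4%) and 9030616G12Rik (100%) and the protein-coding 5830473C10Rik (97.4%) had nearly all their counts there too. KO replicate 3 was the library with the high hepatocyte marker sum. B430306N03Rik had 67.7% in WT replicate 2, with 9.67 CPM there, 2.99 CPM in WT replicate 3 and at most 0.630 CPM elsewhere. WT replicates 2 and 3 were also the libraries with the highest macrophage marker sums. The part of these cell types in the 20 members was not tested. None of the 20 was called, and 10 of them did not pass the count filter. All but 1300017J02Rik were named after their values were seen.

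At the edge of the rule, 1600023N17Rik and E230015B07Rik held 60 counts and 2810407A14Rik held 61, while 2900064F13Rik, 3830403N18Rik and D030062O11Rik held 59 and stayed out. E230015B07Rik had 3, 3 and 6 counts in WT and 19, 10 and 19 in KO. 2810407A14Rik had 20, 19 and 9 in WT and 1, 3 and 9 in KO. With 30 summed counts as the minimum there were 1157 members, of which 15 were called higher and 1 lower, and with 120 there were 847, of which 13 were called higher and 1 lower. In all, 20 of the 1001 members did not pass the filter on low counts and entered no test.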

How the data were processed

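RNA of 3 WT and 3 KO adrenal gland samples was sequenced after rRNA removal as directional, paired-end libraries, per the labels' protocols. The submitters' processing notes name STAR, StringTie, Trimmomatic, Picard, edgeR and the GRCm38 build. The sources used here do not give tool versions, the counting program or strand use. As input, the authors deposited whole-number read counts per locus, raw per the file headers, and these entered every test. Their deposited log2 values (log2 CPM, and values scaled to Rn7sk) entered no test. Gene lengths deposited by the authors gave the levels per kilobase. Unnamed loci, with 1.39% to 2.04% of a library's counts, were left out.

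Named loci passing filterByExpr were scaled with TMM and tested with edgeR 4.0.16 (robust quasi-likelihood, R 4.3.3), adjusted by Benjamini-Hochberg over 21358 loci, with calls at an adjusted p under 0.05. CPM values use TMM-scaled library sizes. SE is the log2 fold change divided by the square root of F. Each locus was paired with the nearest tested locus holding a single symbol that is neither a clone nor a predicted-gene name. The difference of log2 CPM (prior count 2) was tested with limma 3.58.1 over 21322 pairs. Ratios of low counts carry exact Clopper-Pearson 95% intervals. The scripts were tested on simulated data. Coordinates are those of the deposited table, and types are from GENCODE M21, which matched all 1001 members, 931 with the same coordinates. Promoter windows are from RefSeq.

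The members and lists were chosen with earlier results of these data known. Named members were the 12 largest called rises, the called fall filled to 5 by p-value, the 4 highest per length in each type, the 2 highest in each position class, the 8 pairs of largest called difference, 3 members on each side of the count minimum, and the 4 most variable and 4 steadiest. Others are said to have been named after their values were seen. Alternatives were DESeq2 1.42.0, RLE size factors, total counts, equal Rn7sk counts, other filters, unnamed loci kept, a replicate block, leaving out libraries, another prior count and other choices of the neighbour. Neighbours by GENCODE coordinates were added after seeing the data.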

Additional observations from a re-analysis of the deposited data

How the results depend on the processing

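The 15 members called higher and 1 called lower became 87 and 18 with DESeq2, 28 and 1 with equal Rn7sk counts, and 31 and 1 with total counts alone, where 12.4%, 3.33% and 3.16% of all loci were called against 1.84%. The members' median log2 fold change was 0.46 with equal Rn7sk counts and 0.49 with total counts, and between 0.23 and 0.31 above that of all tested loci in every setting run. Leaving out 1 library gave 0 to 16 members higher, 0 to 2 lower, a median of 0.24 to 0.31, and 0 to 16 called pairs in place of 17. By library, the members called higher were 0 without KO replicate 1 or KO replicate 2, 1 without KO replicate 3 or WT replicate 3, 9 without WT replicate 1 and 16 without WT replicate 2. In that order, 0.0672%, 0.099%, 0.171%, 0.0886%, 1.74% and 2.95% of all tested loci were called. Of all pairs 0.0797% to 2.41% were called with 1 library left out. Without WT replicate 1 and KO replicate 3 together, edgeR called 0 higher and 0 lower (120 and 31 at an unadjusted p under 0.05), and 3 pairs were called. Of all tested loci 0.0754% and of all pairs 0.408% were called there. Fewer samples enter these fits.

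With the replicate number as a block, edgeR called 0 members higher and 0 lower (125 and 23 at an unadjusted p under 0.05, smallest adjusted p 0.107), the median was 0.28 and 0 pairs were called. Of all tested loci 0.0234% and of all pairs 0.127% were called with this block. Deviations of same-numbered WT and KO samples had correlations of -0.0857, 0.0118 and -0.142, and those of differently numbered samples -0.0649 to 0.131. With 3 samples in each group these values cannot show whether a shared number marks a pairing. RLE size factors, a filter at 1 CPM, no filter and unnamed loci kept gave 11 to 18 members higher and 1 lower. In that order, 1.78%, 4.0%, 0.955% and 1.58% of all tested loci were called. The highest count, 18, came with the filter at 1 CPM, under which 476 members were tested. The 26 members run under these alternatives (those called alone or in a pair, and the 4 falls next in order) kept their direction; the other named members were not run. Counts limit the lowest members: at 60 counts over 6 libraries, a few reads separate the groups.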
